A study of Mus musculus with 6 samples.

Results

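The transcripts of 10 genes of the NF-kappaB pathway were followed in bone-marrow neutrophils of mice that lack the microRNA miR-223 and of wild-type mice. NF-kappaB is a family of transcription factors that drives inflammatory genes. The genes were listed by their part in the pathway: the subunits Nfkb1, Nfkb2, Rel and Relb and the inhibitors Nfkbia, Nfkbie and Tnfaip3. The list also held the kinase Chuk, the induced gene Ier3 and Nfkbiz, a nuclear relative of Nfkbia. It was drawn up with earlier results of these data known, so it was not blind to them. These 10 genes were measured by 15 probe sets, chosen by probe set number, of 45101 rows in the deposited table. Each probe set reads several short array probes together as 1 value, and 5 of the 10 genes had more than 1. The pairing of probe set numbers with these genes was supplied with the list of members and could not be checked against the deposited table, which holds numbers only.

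In resting cells, NF-kappaB dimers are held in the cytoplasm by inhibitors of the IkappaB family. Signals from Toll-like, interleukin-1 and TNF receptors activate a kinase complex that marks the inhibitor for destruction, and the freed dimer enters the nucleus. Among the genes it switches on are its own inhibitors, which close the loop. In neutrophils the pathway is known for its part in cytokine production and in prolonging cell life at inflamed sites. miR-223 is abundant in myeloid cells and lowers the level and translation of transcripts that pair with its seed, bases 2 to 8.

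The comparison set 3 arrays of miR-223 null neutrophils against 3 arrays of wild-type neutrophils, all Mus musculus. Cells of both groups came straight from the mouse and were taken with a Gr-1 antibody by magnetic sorting (MACS), with no treatment named. The sources used here do not give strain, sex, age or the design of the null allele, nor whether each array came from a separate mouse. The p-values therefore measure the spread between these arrays, part of which may be technical. In such bulk samples, fewer cells of a type and less RNA per cell cannot be told apart. The loss of miR-223 and the markers of neutrophils and of other bone-marrow cells were not analysed here, since no other probe set could be named. Values are log2 expression values as deposited. The arrays had medians from 4.81 to 4.84.

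By their labels, the null cells lack the product of the miR-223 gene. RefSeq (GRCm38.p6) places both of its mature arms on the plus strand of the X chromosome, at chrX:96242884-96242905 for the 3p arm and chrX:96242842-96242864 for the 5p arm. They are shown 5′ to 3′ with the seed in capitals, because pairing to the seed is the usual mark of a direct target.

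mmu-miR-223-3p: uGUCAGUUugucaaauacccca

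mmu-miR-223-5p: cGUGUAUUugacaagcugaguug

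Each seed occurred in 1 of the 1738 mature mouse entries of that table, so no other listed microRNA shares either seed. Target sites in the member transcripts were not analysed here.

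Several of the members are known to be switched on by NF-kappaB themselves, so their promoters were searched for its recognition letters. The search was for the kappaB consensus on both strands: 3 G, a purine, 2 free bases, 2 pyrimidines and 2 C. It covered the 300 bases from 250 before to 50 after each start site in RefSeq (GRCm38.p6). Of the member genes, 7 were in that table, and 6 of them held a match: Nfkb2, Rel, Nfkbia, Nfkbie, Tnfaip3 and Ier3. Of all 27025 genes listed there, 9.55% held a match, as did 8.46% of all 32851 promoters. The members were picked for their part in this pathway, so the comparison is a description and carries no test. Stretches of 30 bases around a match are shown for these genes on the gene's strand, with the matching letters in capitals. In Nfkbia and Ier3 the match lay on the opposite strand, so the capitals show its reverse complement. Overlapping matches were joined.

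Nfkb2, chr19:46304688-46304717, plus strand: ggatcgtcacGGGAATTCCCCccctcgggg

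Rel, chr11:23771042-23771071, minus strand: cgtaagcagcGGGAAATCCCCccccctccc

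Nfkbia, chr12:55492657-55492686, minus strand: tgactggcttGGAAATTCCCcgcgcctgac

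Nfkbie, chr17:45555584-45555613, plus strand: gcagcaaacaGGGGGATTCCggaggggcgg

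Tnfaip3, chr10:19015516-19015545, minus strand: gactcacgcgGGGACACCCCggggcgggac

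Ier3, chr17:35821611-35821640, plus strand: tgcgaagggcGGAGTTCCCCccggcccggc

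The matches shown began 29 bases before the start site in Nfkbia, 39 in Nfkb2, 92 in Rel, 92 in Ier3, 106 in Nfkbie and 125 in Tnfaip3. Tnfaip3 and Nfkb2 each held a further match region in the same promoter that is not shown. Of their other promoters in the table, the 1 of Tnfaip3 held none, and those of Nfkb2 held 2 and 1. The window of Chuk did not hold these letters. Nfkb1, Relb and Nfkbiz were not in the promoter table. A match describes the sequence and is not a measured binding site.

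Among the members, which were chosen with earlier results of these data known, 1 passed the test: Ier3 was 1.41-fold higher in null cells. None of the listed probe sets for the subunits, the inhibitors, Nfkbiz or Chuk passed. The subunit Rela was not among the members and was not analysed here. A probe set was called at a Benjamini-Hochberg adjusted p under 0.05 in limma, over the 22519 probe sets whose mean reached the median level of 4.83. All 15 members passed that filter, and their lowest value on any array was 6.57. The 1 call among 15 members stands beside 3.84% of all tested probe sets in either direction and 2.78% called higher in null cells, so the count of calls is near that of the array. At an unadjusted limma p under 0.05 there were 2 of 15 members, Ier3 and Relb, against 4215 of the 22519 tested probe sets. That count therefore does not set the members apart from the array. Members lay on both sides of 0, with 6 positive and 9 negative differences (null minus wild type). Their median was −0.036 log2 units, against −0.0080 for all tested probe sets. The median absolute difference was 0.14 for the members and 0.14 for all.

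The standard errors of the members ran from 0.067 to 0.19 log2 units, with a median of 0.11 against 0.13 over all tested probe sets. For 13 of 15 members the 95% interval of the difference lay within a 1.5-fold change in either direction, and for all 15 within a 2-fold change. The intervals that reached past 1.5-fold were those of Ier3 and of Nfkbia 1448306_AT. These intervals are not widened for the number of probe sets tested.

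**Figure D1:**
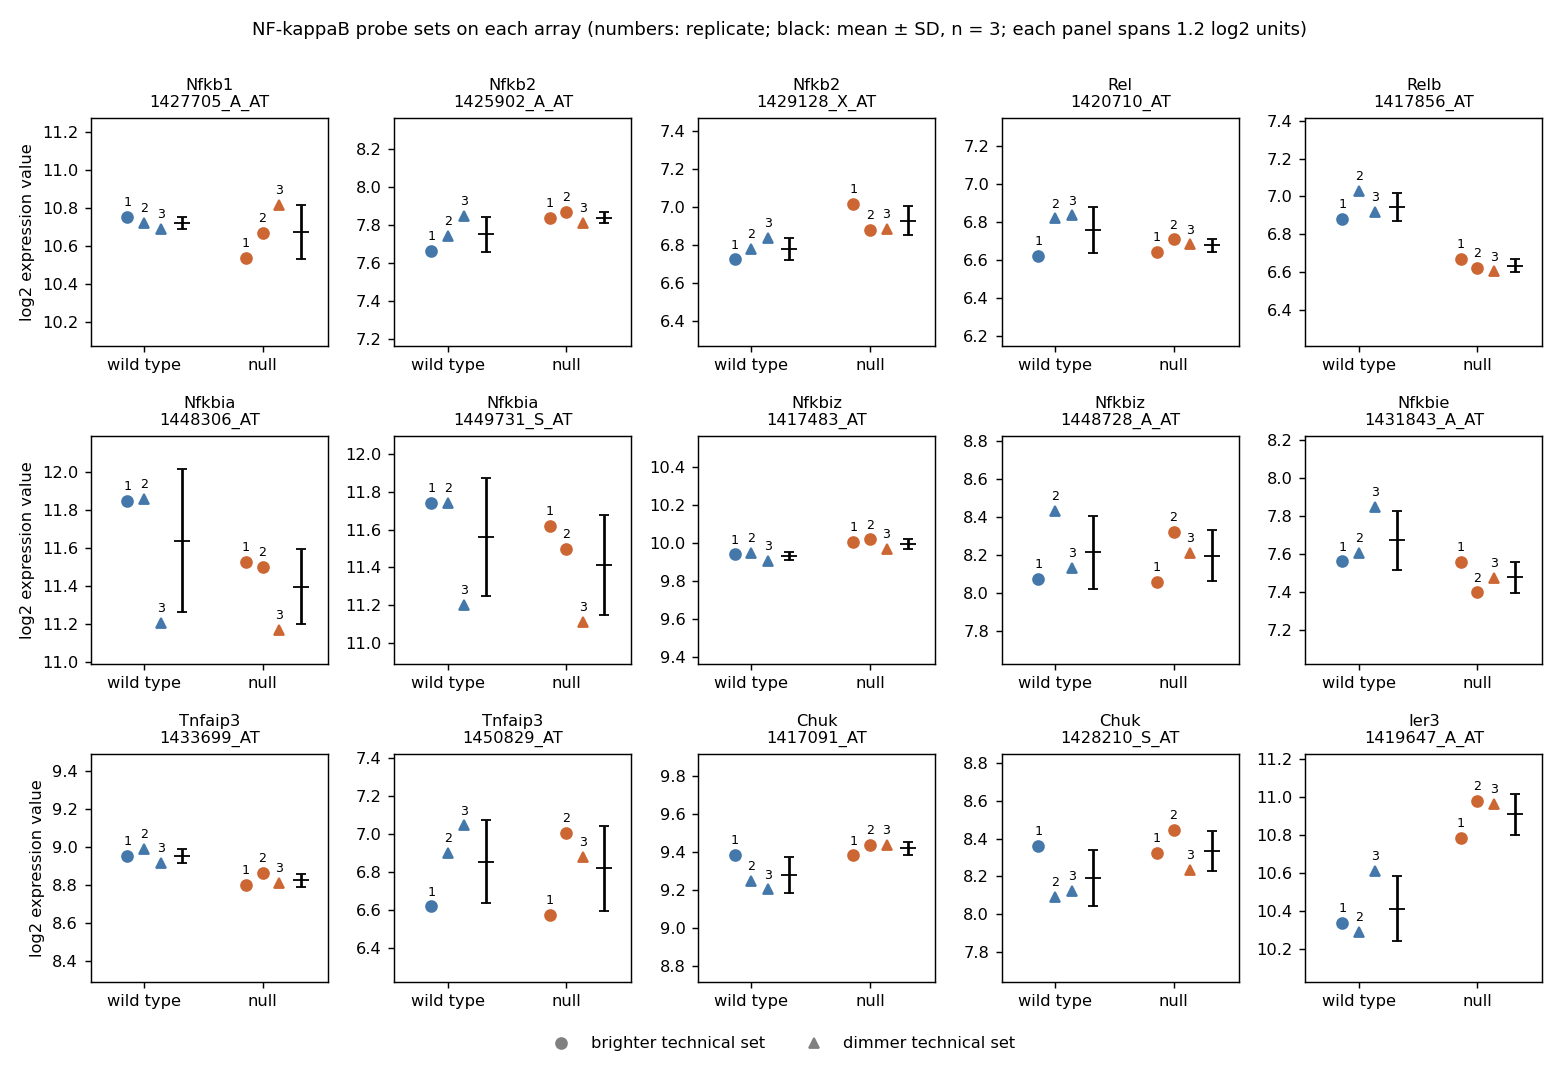
Log2 expression value (y axis) of the 15 probe sets on each array, wild type in blue and null in orange, with the replicate number above each point and the mean ± SD (n = 3) in black. Each panel spans 1.2 log2 units. The groups are widest apart for Ier3 and Relb, while replicate 3 lies low in both groups for Nfkbia.

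In 6 of 15 members (40%) the 3 null and the 3 wild-type values did not overlap, against 24.6% of all tested probe sets. The null arrays were higher in Ier3, Nfkb2 1429128_X_AT and Nfkbiz 1417483_AT, which is 3 of 15 against 12.8% of all tested. They were lower in Relb, Nfkbie and Tnfaip3 1433699_AT, again 3 of 15 against 11.8%. The gap between the groups was 0.21 log2 units for Relb and 0.18 for Ier3. In the others it was small, at 0.053 for Tnfaip3, 0.043 for Nfkb2, 0.017 for Nfkbiz and 0.0020 for Nfkbie. Probe sets of a gene share its transcript, so the 15 are not independent.

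Of the subunits listed, Relb differed most and fell short of the threshold. Relb pairs with the processed Nfkb2 product in the slower, non-canonical branch of the pathway. Probe set 1417856_AT read 6.67, 6.63 and 6.61 on null replicates 1, 2 and 3, and 6.88, 7.03 and 6.92 on wild-type replicates 1, 2 and 3. All null arrays lay below all wild-type arrays, and each group was tight. The mean of the null arrays was 6.63 ± 0.035 and that of the wild-type arrays 6.94 ± 0.075 (SD, n = 3 each). The log2 difference was −0.31 with a standard error of 0.10 and a 95% interval from −0.55 to −0.066, a 1.24-fold higher level in wild-type cells (limma unadjusted p = 0.0192, adjusted p = 0.160). The adjusted p ran from 0.115 to 0.524 over the 23 other settings tried, and none called it. Of all tested probe sets, 19.0% had a larger absolute difference than Relb.

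Nfkb2 encodes the precursor that is cut to make the partner of Relb, and both of its probe sets had small positive differences that did not pass. Probe set 1425902_A_AT read 7.84, 7.87 and 7.81 on the null arrays and 7.66, 7.74 and 7.85 on the wild-type arrays. The groups overlapped through wild-type replicate 3, and the difference was 0.088 (standard error 0.097, limma adjusted p = 0.719). Probe set 1429128_X_AT read 7.02, 6.88 and 6.89 against 6.72, 6.78 and 6.84. The null arrays were all higher, by a difference of 0.15 (standard error 0.11, limma adjusted p = 0.534). Affymetrix gives the suffix X to probe sets with probes that can also bind other transcripts. Whether the other members read a single gene, among them the S probe sets of Nfkbia and Chuk, was not checked here. Larger absolute differences than those of 1425902_A_AT and 1429128_X_AT were seen in 64.8% and 46.4% of all tested probe sets. The differences of Relb and Nfkb2 had opposite signs, and neither gene passed.

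Nfkb1 and Rel, subunits of the canonical dimers, overlapped between the groups. Nfkb1, the precursor of a DNA-binding subunit, read 10.53, 10.67 and 10.82 on null arrays and 10.75, 10.72 and 10.69 on wild-type arrays (1427705_A_AT). The null arrays spread on both sides of the wild-type ones, and the difference was −0.047 (95% interval −0.24 to 0.15, limma adjusted p = 0.846). Rel, a subunit with its own activation domain, read 6.64, 6.71 and 6.68 on null arrays and 6.62, 6.82 and 6.83 on wild-type arrays (1420710_AT). Wild-type replicate 1 lay below every null array and the others above, for a difference of −0.081 (95% interval −0.34 to 0.18, limma adjusted p = 0.788).

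Among the inhibitors, no probe set passed and the largest spread was in Nfkbia. Nfkbia encodes IkappaB-alpha, the inhibitor that is destroyed and remade fastest when the pathway fires. Probe set 1448306_AT read 11.52, 11.50 and 11.17 on null replicates 1, 2 and 3, and 11.85, 11.86 and 11.20 on wild-type replicates 1, 2 and 3. Replicate 3 was the lowest array in each group, and apart from these arrays the null values lay below the wild-type values. Probe set 1449731_S_AT read 11.62, 11.50 and 11.11 against 11.74, 11.74 and 11.20, in the same order. The differences were −0.24 (95% interval −0.67 to 0.19, limma adjusted p = 0.570) and −0.15 (95% interval −0.57 to 0.26, limma adjusted p = 0.740).

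The size of the Nfkbia difference moved with several of the arrays. Without wild-type replicate 3 it was −0.46 for 1448306_AT (limma adjusted p = 0.115) and −0.33 for 1449731_S_AT (limma adjusted p = 0.309). Without null replicate 3 it was −0.13 (limma adjusted p = 0.814) and −0.0036 (limma adjusted p = 0.995). Without wild-type replicate 1 it was −0.13 and −0.062, and without wild-type replicate 2 likewise −0.13 and −0.062 (limma adjusted p from 0.803 to 0.929). Leaving out null replicate 1 gave −0.30 and −0.26, and null replicate 2 gave −0.29 and −0.20 (limma adjusted p from 0.622 to 0.754). In a fit without wild-type replicate 3 that also blocked on the technical sets described further on, 1448306_AT passed at −0.49 (limma adjusted p = 0.0208), in 1 of the 23 other settings. In the rest it did not pass, at adjusted p up to 0.834.

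Nfkbie encodes IkappaB-epsilon, another cytoplasmic inhibitor. Probe set 1431843_A_AT read 7.56, 7.40 and 7.47 on null arrays and 7.56, 7.61 and 7.85 on wild-type arrays. The groups touched, with null replicate 1 just below wild-type replicate 1. The difference was −0.20 (95% interval −0.47 to 0.076, limma adjusted p = 0.438). Without wild-type replicate 3, the highest array, it was −0.11 (limma adjusted p = 0.707).

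Nfkbiz encodes IkappaB-zeta, a nuclear member of the family that helps switch on a second wave of inflammatory genes. Probe set 1417483_AT read 10.003, 10.02 and 9.97 on null arrays and 9.94, 9.95 and 9.90 on wild-type arrays. The null arrays were all higher by a small amount, 0.065 (95% interval −0.091 to 0.22, limma adjusted p = 0.696). Probe set 1448728_A_AT overlapped, with 8.06, 8.32 and 8.21 against 8.07, 8.43 and 8.13. Its difference was −0.017 (95% interval −0.32 to 0.28, limma adjusted p = 0.973), and its sign turned in 6 of the 23 other settings.

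Tnfaip3 is an enzyme that edits ubiquitin chains on signalling proteins above the kinase complex and so shuts the pathway down. Probe set 1433699_AT read 8.80, 8.86 and 8.81 on null arrays and 8.95, 8.99 and 8.91 on wild-type arrays. All null arrays were lower, by −0.13 (95% interval −0.31 to 0.054, limma adjusted p = 0.452). Probe set 1450829_AT read 6.57, 7.01 and 6.88 against 6.62, 6.90 and 7.05. Its groups overlapped across most of their range, and the difference was −0.036 (95% interval −0.42 to 0.34, limma adjusted p = 0.948), with the sign turned in 7 of the 23 other settings.

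Chuk encodes IKK-alpha, a catalytic subunit of the kinase complex that is central to the non-canonical branch, and it is a published target of miR-223 in cells of the monocyte lineage. Its probe sets lay slightly higher in null cells and did not pass. Probe set 1417091_AT read 9.38, 9.44 and 9.44 on null arrays and 9.38, 9.24 and 9.20 on wild-type arrays. Wild-type replicate 1 met the lowest null array and the other wild-type arrays lay lower. Probe set 1428210_S_AT read 8.32, 8.45 and 8.24 against 8.36, 8.09 and 8.12. The same wild-type array was high there and lay within the null range.

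The differences of Chuk were 0.14 (standard error 0.082, limma adjusted p = 0.424) for 1417091_AT and 0.14 (standard error 0.11, limma adjusted p = 0.574) for 1428210_S_AT. Their 95% intervals ran from 0.966-fold to 1.26-fold and from 0.922-fold to 1.32-fold, null over wild type. A rise of 1.5-fold in the Chuk transcript lay outside both, while rises up to 1.26-fold and 1.32-fold lay within them. Whether miR-223 acts on Chuk in these cells was not tested. Without wild-type replicate 1 the differences were 0.19 (limma adjusted p = 0.292) and 0.23 (limma adjusted p = 0.348). Over the omissions of 1 array, 1417091_AT ran from 0.10 (without wild-type replicate 3) to that 0.19. For 1428210_S_AT the difference was 0.087 without null replicate 2 and 0.094 without wild-type replicate 2 (limma adjusted p = 0.827 and 0.806). With the technical sets described further on as a blocking term, it was 0.076 (limma adjusted p = 0.671). The arrays measure transcripts, so the level of the IKK-alpha protein is not addressed.

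Ier3 was the member that passed. It is an early response gene whose product acts on cell survival and on NF-kappaB signalling. Probe set 1419647_A_AT read 10.79, 10.98 and 10.96 on null replicates 1, 2 and 3, and 10.34, 10.29 and 10.61 on wild-type replicates 1, 2 and 3. All null arrays were higher, and wild-type replicate 3 came closest to them. The means were 10.91 ± 0.11 and 10.41 ± 0.17 (SD, n = 3 each). The log2 difference of 0.50 had a standard error of 0.10, which is 1.41-fold with a 95% interval from 1.19 to 1.67 (limma adjusted p = 0.0462). Of all tested probe sets, 7.88% had a larger absolute difference.

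The call for Ier3 lay close to the threshold, while its size moved little. The difference stayed between 0.43 and 0.60 over the 23 other settings, of which 11 called it and 12 did not (limma adjusted p from 0.0100 to 0.174). It ended when every probe set was tested with no filter (limma adjusted p = 0.0580), without an intensity trend (adjusted p = 0.0801) and with null replicates 1 and 2 averaged to 1 sample (adjusted p = 0.130). Leaving out an array ended it for null replicate 1 at 0.56 (limma adjusted p = 0.115), null replicate 2 at 0.46 (adjusted p = 0.166) and null replicate 3 at 0.47 (adjusted p = 0.116). The same held for wild-type replicate 1 at 0.46 (limma adjusted p = 0.0998) and wild-type replicate 2 at 0.43 (adjusted p = 0.112). Without wild-type replicate 3 it was 0.60 and passed (limma adjusted p = 0.0333).

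**Figure D2:**
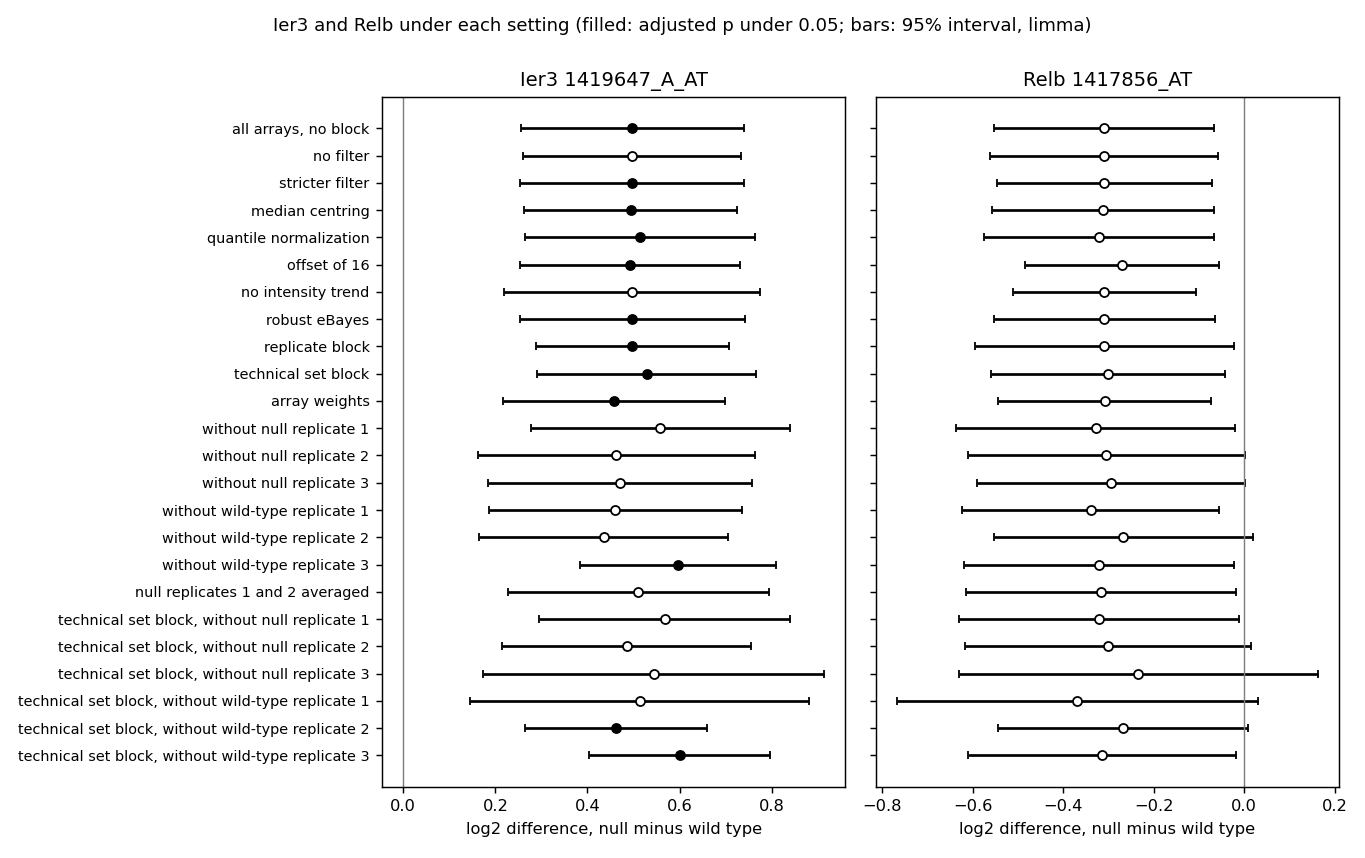
Log2 difference, null minus wild type (x axis), of Ier3 and Relb in each of the 24 fits named on the y axis, with 95% intervals from limma; filled points had an adjusted p under 0.05. Ier3 stays between 0.43 and 0.60 and is filled in the fit of all arrays and in 11 others, while Relb stays below 0 and is never filled.

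Where a gene had a pair of probe sets, the difference between them was taken on each array and compared between groups. It changed by −0.059 for Nfkb2, −0.089 for Nfkbia, 0.082 for Nfkbiz, −0.091 for Tnfaip3 and −0.0015 for Chuk. The two-sided exact permutation p was 0.4, 0.3, 0.6, 0.6 and 1, where 3 arrays against 3 cannot go below 0.1, so the test can show neither a difference nor its absence. When the probe sets of a gene were averaged, the differences were 0.12 for Nfkb2, −0.20 for Nfkbia, 0.024 for Nfkbiz, −0.082 for Tnfaip3 and 0.14 for Chuk, with limma adjusted p from 0.492 to 0.936.

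**Figure D3:**
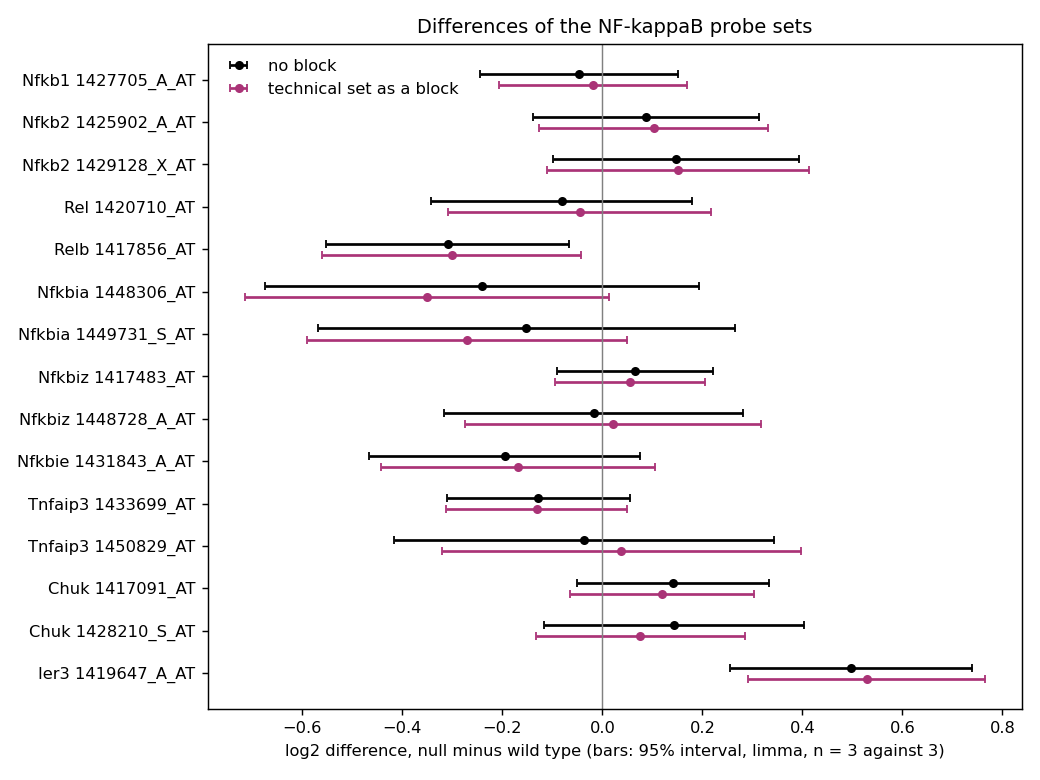
Log2 difference, null minus wild type (x axis), of the 15 probe sets with 95% intervals from limma (3 arrays against 3), in black without a block and in purple with one for the technical set. In both fits the intervals of Ier3 and Relb leave 0, and only Ier3 had an adjusted p under 0.05.

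The arrays were split into 2 technical sets. Each set held both genotypes, but in unequal number, and the way of splitting always gives 2 sets. The hybridization controls, bacterial and phage sequences added to each sample, were averaged per array, and the arrays were parted where neighbouring means lay farthest apart. The brighter set (10.94 to 10.98) held null replicates 1 and 2 and wild-type replicate 1, and the dimmer set (10.72 to 10.81) held the other arrays. The labels name no batch. With this set as a blocking term, Ier3 was again the 1 member called, at 0.53 (limma adjusted p = 0.0194), while 11.0% of all tested probe sets were called. Relb was at −0.30 (limma adjusted p = 0.135) and Nfkbia 1448306_AT at −0.35 (limma adjusted p = 0.210).

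Within the sets, 11 of 15 members had the same sign in both (73.3%), against 66.7% of all tested probe sets. Ier3 was 0.54 in the brighter and 0.51 in the dimmer set, and Relb was −0.23 and −0.37. The dimmer value of Ier3 set null replicate 3 (10.96) against unlike wild-type replicates 2 (10.29) and 3 (10.61). Nfkbia was −0.34 and −0.36 for 1448306_AT, and −0.18 and −0.36 for 1449731_S_AT. In the dimmer set these Nfkbia values rested mostly on wild-type replicate 2. For 1448306_AT null replicate 3 read 11.17, near wild-type replicate 3 (11.20) and below wild-type replicate 2 (11.86). Chuk differed by 0.027 and 0.025 in the brighter set (1417091_AT and 1428210_S_AT) and by 0.21 and 0.13 in the dimmer set. Signs were opposite for Nfkb1 (−0.15 and 0.11), Rel (0.055 and −0.14), Nfkbiz 1448728_A_AT (0.11 and −0.071) and Tnfaip3 1450829_AT (0.17 and −0.095). Each value rests on 3 arrays and has no test.

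**Figure D4:**
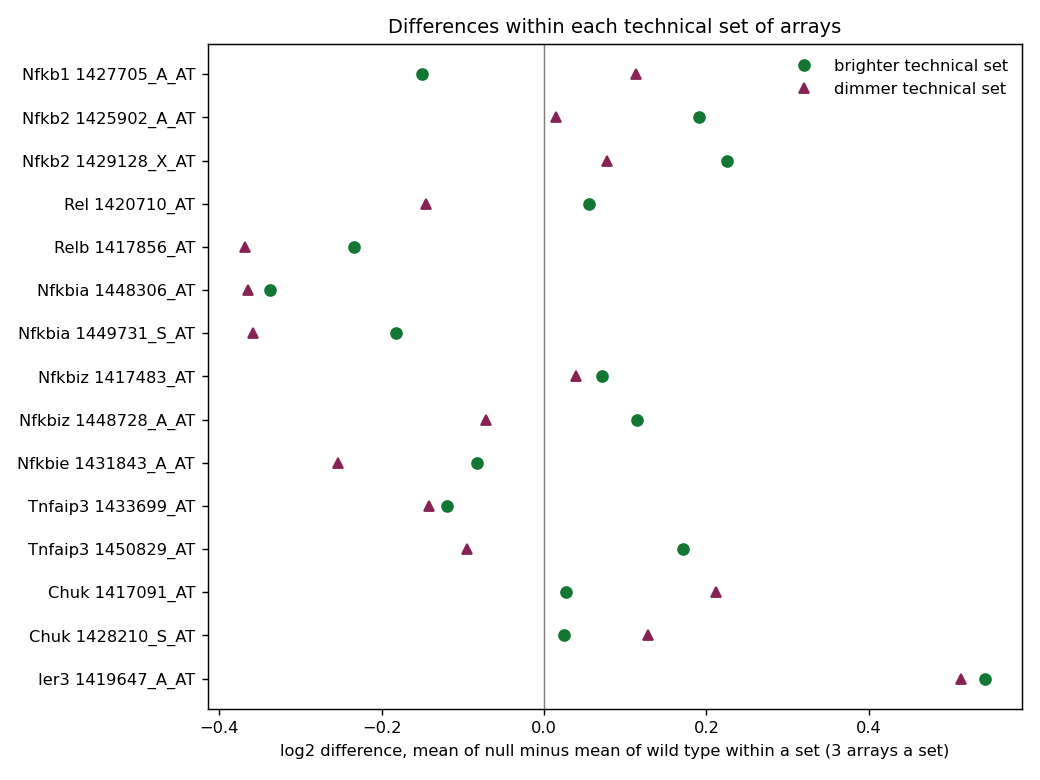
Log2 difference within each technical set (x axis, mean of null minus mean of wild type, 3 arrays a set) for the 15 probe sets. Ier3 lies at 0.54 and 0.51 and Relb and Nfkbia lie below 0 in both, while 4 members change sign between the sets.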

How the data were processed

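The authors deposited 1 log2 expression value per probe set and array. Per the submitters' processing notes GCOS was used; the sources used here do not give the normalization steps, and the scale was inferred from the range of the values. The 64 control rows were left out, and probe sets with a mean at or above the median were tested in R 4.3.3 with the package limma 3.58.1 (lmFit, trended eBayes, no covariate, two-sided p, Benjamini-Hochberg over all tested probe sets). The fit was tested on simulated data. Exact permutation tests used scipy 1.17.1, and figures matplotlib 3.10.9. Array precision is limited by the 3 arrays per group. The members, lists and settings were chosen with earlier results of these data known. The rule for named genes took all 15 members. The planned lists of other pathway genes and of cell markers, and the search for probe sets most like Chuk, were not made because no table here pairs those probe sets with genes. Alternatives were other filters, scalings, offsets, spread estimates, blocks and array omissions. The technical set block with arrays left out, and the settings for pairs of probe sets, were added after seeing the data.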

Additional observations from a re-analysis of the deposited data

How the results depend on the processing

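The 1 member call (Ier3) became 0 with no filter, with no intensity trend and with null replicates 1 and 2 averaged, ranged from 0 to 1 when an array was left out, and from 0 to 2 when the technical set was also a block. It was 1 in the other planned fits. Over all tested probe sets the 864 calls became 2466 under a technical set block and 119 with null replicates 1 and 2 averaged, 85 to 592 when an array was left out, and, with the block and an array left out, 123 (wild-type replicate 1), 464 (null replicate 3), 2418 (wild-type replicate 3) and 2909 (wild-type replicate 2), the others lying between. Differences near 0 changed sign. Leaving out an array moved Nfkb1 between −0.12 and 0.022 (without null replicate 1). Under a block for the set it turned to 0.028 without null replicate 1 and 0.11 without wild-type replicate 1. Rel turned to 0.055 with the block and without null replicate 3. Nfkbiz 1448728_A_AT turned to 0.021 with the block, 0.024 averaged with the gene's other probe set, 0.053 without null replicate 1 and 0.093 without wild-type replicate 2 (range over omissions −0.086 to 0.093), and with the block and an array left out to 0.065, 0.11 and 0.099. Tnfaip3 1450829_AT turned to 0.038 with the block, 0.087 without null replicate 1 and 0.059 without wild-type replicate 3 (range over omissions −0.15 to 0.087), and with the block and an array left out to 0.11, 0.17, 0.026 and 0.088. No member with a reversed sign passed the test in any of these fits. The difference between the Nfkbia probe sets moved to −0.0064 within the dimmer set. The cause was not tested.

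With the replicate number as a block (replicate block), 857 probe sets were called, Ier3 again the 1 member among them (0.50, limma adjusted p = 0.0402). No member's call changed. The standard errors of Nfkbia fell from 0.19 to 0.082 for 1448306_AT and from 0.18 to 0.063 for 1449731_S_AT. Neither passed (limma adjusted p = 0.167 and 0.244). At an unadjusted limma p under 0.05 there were 3 members in this fit. Deviations of same-numbered arrays correlated at 0.211, −0.124 and 0.371 across probe sets, and null replicate 2 was closest to wild-type replicate 1 (0.373), so same-numbered arrays were not treated as pairs. The planned fits for other pathway genes were not run. Array number limits the precision, and no detection calls were used.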
